A study of Mus musculus with 4 samples.

Results

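The genes described here are 46 cyclins, cyclin-dependent kinases, mitotic regulators and proliferation markers, followed in mouse liver after knockdown of Cux2. They were chosen by name, with earlier results of these data known, so their counts beside all genes are a description. Sorted by cell cycle phase, 11 act mainly in G1 and at the entry to S phase, 6 in S phase and 29 in G2 and mitosis. Probes were assigned through the RefSeq accession on the array, and 44 of the 46 genes were found and tested. No probe was matched to Cdkn3 or Mki67, both mitotic, so that class had 27 tested genes. The 44 genes were part of 25101 genes fitted together.

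Cux2 is a homeobox transcription factor that is expressed far more in female than in male mouse liver. Liver RNA came from female CD-1 mice, 8 weeks old, in 3 groups. The control group was 13 mice given a non-specific siRNA, the day 5 group was 5 mice killed 5 days after Cux2 siRNA, and the day 8 group was 4 mice killed 8 days after it. RNA was pooled within groups: the series design gives 6 or 7 mice to a control pool, 2 or 3 to a day 5 pool and 2 to a day 8 pool. The sample descriptions instead give 6 mice for the control pool of every array. Each of 4 2-colour arrays set a treated pool against a control pool, with 2 arrays for each day. The treated pool carried Alexa 647 on the replicate 1 array of each day and Alexa 555 on the replicate 2 array, so replicate number and dye orientation are the same thing. The time at which control mice were killed, the control pool used on each array and the route of siRNA delivery are not given in the labels. Day 5 and day 8 were both set against the same control group, and the same pool may have served both days. It may also have served both arrays of a day. The ratios of day 5 and day 8 are therefore given side by side and are not treated as independent. All p-values here rest on how far pools on 4 arrays differed, and not on differences between single mice.

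The cell cycle is driven by kinases that need a cyclin partner. D cyclins with Cdk4 or Cdk6, and then E cyclins with Cdk2, take a cell through G1 by phosphorylating the retinoblastoma family and so freeing E2F factors. Cyclin A accompanies DNA synthesis, and cyclin B with Cdk1 drives entry into mitosis. Many late genes are held down in resting cells by the DREAM complex and induced in G2 by MuvB with B-Myb and FoxM1, through a promoter motif called the CHR, often near CCAAT boxes bound by NF-Y. Adult hepatocytes rarely divide, and a liver also holds macrophages, endothelium and blood cells that can, so whole-liver RNA for these genes can come from a small share of its cells.

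The promoters of the mitotic genes are shown because the CHR and CCAAT motifs were not used to choose the genes. RefSeq promoter windows on GRCm38.p6, from 250 bases before to 50 bases after the transcription start, were present for 36 of the 46 genes. The stretches printed are the 150 bases before the start, 5′ to 3′ along the gene's strand, for 5 mitotic genes that hold both motifs near the start and for Cdk4, a G1 gene with neither. Capitals mark CCAAT or TTTGAA (the CHR letters), or their reverse complements ATTGG and TTCAAA.
Cdc20, chr4:118437344-118437493, minus strand: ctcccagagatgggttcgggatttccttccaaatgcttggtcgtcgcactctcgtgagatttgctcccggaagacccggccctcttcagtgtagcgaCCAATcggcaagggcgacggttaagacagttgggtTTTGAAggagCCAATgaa
Cdk1, chr10:69352913-69353062, minus strand: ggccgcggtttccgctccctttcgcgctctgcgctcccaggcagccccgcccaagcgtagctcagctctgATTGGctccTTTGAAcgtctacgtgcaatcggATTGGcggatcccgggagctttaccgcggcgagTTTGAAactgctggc
Top2a, chr11:99024190-99024339, minus strand: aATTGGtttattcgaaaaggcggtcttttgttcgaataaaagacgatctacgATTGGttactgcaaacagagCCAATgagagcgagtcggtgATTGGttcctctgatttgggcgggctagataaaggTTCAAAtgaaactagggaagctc
Ube2c, chr2:164769779-164769928, plus strand: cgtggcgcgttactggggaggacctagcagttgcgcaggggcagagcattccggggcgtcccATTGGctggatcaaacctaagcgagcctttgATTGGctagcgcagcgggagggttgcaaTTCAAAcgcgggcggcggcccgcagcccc
Kif11, chr19:37376232-37376381, plus strand: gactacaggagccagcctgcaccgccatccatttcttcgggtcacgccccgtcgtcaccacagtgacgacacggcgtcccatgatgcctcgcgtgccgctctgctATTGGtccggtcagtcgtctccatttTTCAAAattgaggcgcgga
Cdk4, chr10:127063385-127063534, plus strand: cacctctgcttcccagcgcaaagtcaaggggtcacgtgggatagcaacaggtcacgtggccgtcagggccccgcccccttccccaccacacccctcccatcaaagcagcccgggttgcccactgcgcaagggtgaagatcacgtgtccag
The CHR letters begin 18 bases before the start in Cdc20, 15 in Cdk1, 23 in Top2a, 29 in Ube2c and 19 in Kif11. Searched on both strands over the whole window, TTTGAA was in 16 of 23 mitotic promoters (69.6%), in 1 of 5 S phase promoters and in 0 of 8 G1 promoters, against 18.1% of all promoter windows. CCAAT was in 20 of 23 mitotic (87.0%), 3 of 5 S phase and 2 of 8 G1 promoters, against 37.9% of all windows. Both motifs stood together in 16 of 23 mitotic promoters and in 7.12% of all windows. The 16 include Cdkn3 and Mki67, which were not tested. The mitotic windows without TTTGAA were those of Ccnb1, Bub1, Cenpe, Birc5, Nusap1, Mad2l1 and Cdc25b. Of these genes, all but Cdc25b fell in the results below, where 16.3% of all genes fell over both days. Of the tested mitotic genes with TTTGAA, all but Cenpa fell. A link between the motif and a fall was not tested. The E2F letters GGCGGGAA were in 1 S phase promoter, that of Rrm1, in 0 mitotic and 0 G1 promoters, and in 2.24% of all windows. A match is a description of the letters, not a measured binding site. Windows for Aurkb, Ccna2, Ccnd1, Ccnd2, Ccne2, Cdc25c, Foxm1, Kif20a, Stmn1 and Tpx2 were not used here.

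Values are log2 ratios of treated over control after background correction and loess normalization. A gene is said to have fallen or risen where limma's moderated test gave a Benjamini-Hochberg adjusted p under 0.05 over all genes. The knockdown itself was visible: Cux2 stood at -1.92 and -1.70 on the day 5 arrays and at -1.07 and -1.20 on the day 8 arrays. It was lower on all 4 arrays, by less on day 8, and its mean over both days was 36.1% of control (limma, adjusted p = 0.000917). No spot was saturated, and 71.2% to 74.6% of probes in each channel were well above background. Hepatocyte markers, 11 of them tested, had a median of 0.08 over both days, with 2 lower and 1 higher by the same test, where 31.1% of all genes passed. Their array medians split by dye orientation, at 0.19 and 0.40 on the replicate 1 arrays and at -0.29 and -0.40 on the replicate 2 arrays.

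Most of the 44 genes were lower after Cux2 siRNA, and the share that fell was smallest in G1 and largest in mitosis. Over both days 31 of 44 (70.5%) fell and 0 rose, where 16.3% of all genes fell and 14.8% rose (31.1% either way). These counts come from the fit without a term for dye orientation. With that term Ccnd1 and E2f2 passed as higher over both days. By class, 3 of 11 G1 genes, 4 of 6 S phase genes and 24 of 27 mitotic genes fell. On day 5, 28 of 44 fell and 0 rose, where 9.41% of all genes fell and 7.37% rose (16.8% either way). On day 8, 27 of 44 fell and 0 rose, where 8.05% of all genes fell and 6.27% rose (14.3% either way). In the mitotic class 24 genes fell on each day. Of the 44, 35 were below 0 on all 4 arrays, 25 of them mitotic. The same count over all genes is not given, so these counts of sign are only a description. In bulk liver, fewer dividing cells and less of these RNAs per cell cannot be told apart.

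**Figure D1:**
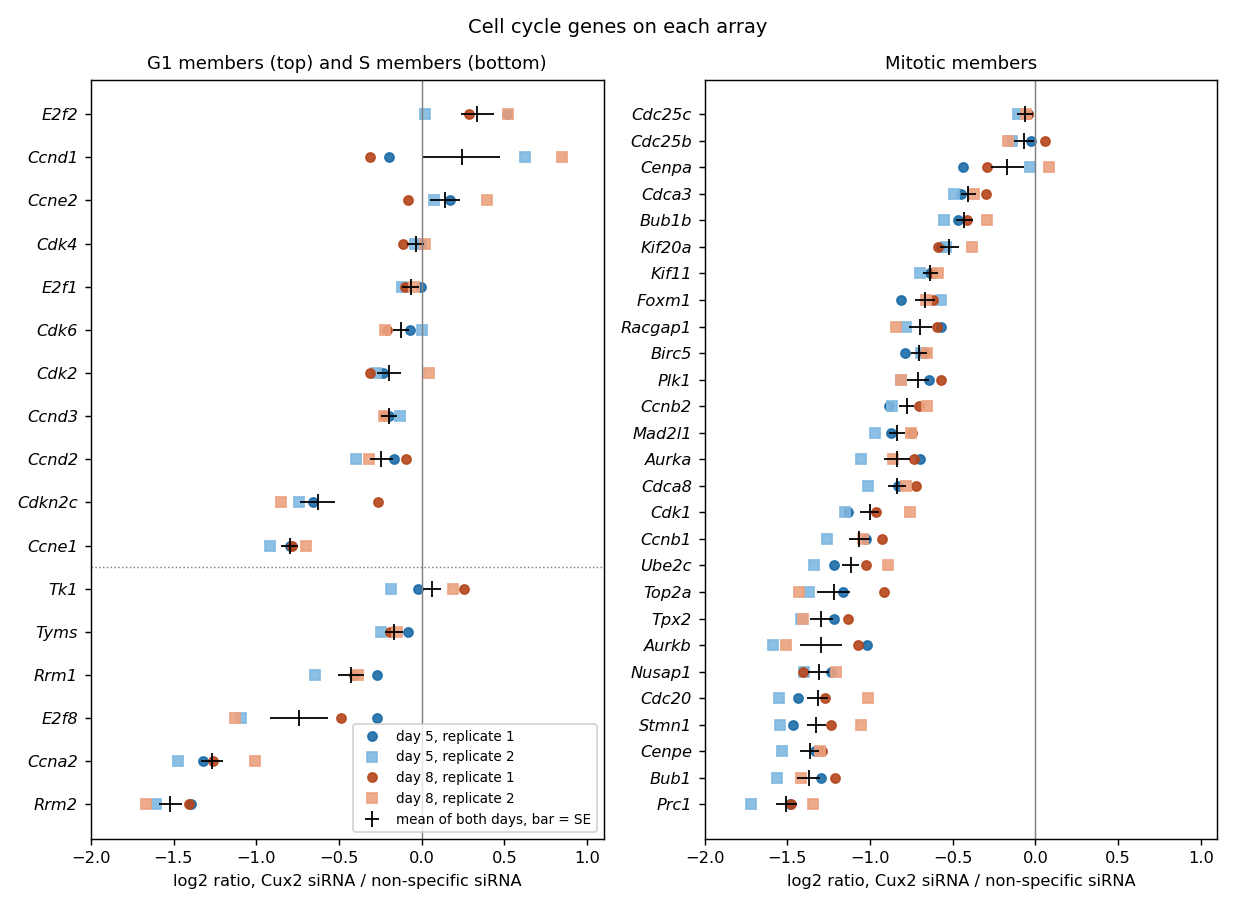
Log2 ratio of treated over control for each of the 44 tested genes, with 1 point per array and a cross at the mean of both days whose bar is its SE. All 4 points lie left of 0 for 25 of the 27 mitotic genes, 5 of the 6 S phase genes and 5 of the 11 G1 genes. The share over all genes is not given beside these counts.

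The class medians kept 1 order on every array. On day 5 the G1 median was -0.17 and -0.12 on replicates 1 and 2, the S phase median -0.27 and -0.87, and the mitotic median -0.88 and -1.01. On day 8 they were -0.21 and -0.04 for G1, -0.45 and -0.69 for S phase, and -0.73 and -0.81 for mitosis. The G1 class was nearest to 0 and the mitotic class farthest below it each time. Fitted over both days the medians were -0.13, -0.59 and -0.84, beside 0.00 over all genes, whose 5th and 95th percentiles were -0.65 and 0.47. The S phase median rests on only 6 genes, which ranged from -1.52 to 0.06. These class medians are a description, since genes are not replicates.

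**Figure D2:**
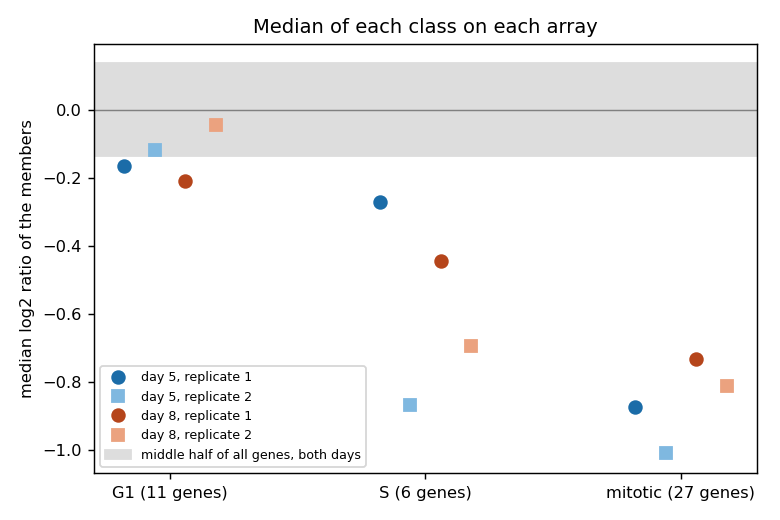
Median log2 ratio of the G1, S phase and mitotic genes on each of the 4 arrays. G1 lies between -0.21 and -0.04, S phase between -0.87 and -0.27 and mitosis between -1.01 and -0.73, in that order on every array.

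Among G1 genes the E-type cyclin Ccne1 stood apart. Ccne1, a partner of Cdk2 at the G1/S boundary, was at -0.79 and -0.92 on day 5 and at -0.78 and -0.70 on day 8. Its processed signal was 526.1 to 755.1 in control and 274.2 to 448.2 in treated pools, with no overlap. It fell to 57.5% of control over both days (log2 -0.80 ± 0.05 SE, limma adjusted p = 0.00181). Its paralog Ccne2 did not pass, at 0.17 and 0.07 on day 5 and -0.08 and 0.40 on day 8 (adjusted p = 0.314 by limma). A dimmer probe for Ccne1 gave a smaller mean of -0.17, so the size of its fall depends on the probe.

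Of the D cyclins, which respond to growth signals in G1, only Ccnd3 passed over both days in the fit without a term for dye orientation. Ccnd1, the D cyclin best known from the regenerating liver, was at -0.20 and 0.62 on day 5 and at -0.31 and 0.85 on day 8. Its processed signal was 2749 to 3701 in control and 2534 to 5293 in treated pools, which overlapped. The ratio was below 0 on both arrays with the treated pool in Alexa 647 and above 0 on both with it in Alexa 555. That gap of 0.99 between orientations is exceeded by 1.21% of genes, and the mean averages values of opposite sign (mean 0.24 ± 0.23 SE, limma adjusted p = 0.5). With a term for dye orientation Ccnd1 passed as higher (limma adjusted p = 0.0255). Ccnd2 was at -0.17, -0.40, -0.09 and -0.32 in the same array order and did not pass (adjusted p = 0.0558 by limma). With the term for dye orientation Ccnd2 passed as lower (limma adjusted p = 0.00926). Ccnd3 was at -0.20 and -0.13 on day 5 and -0.23 on both day 8 arrays. It fell slightly, to 87.2% of control over both days (limma adjusted p = 0.0349), a call that was lost when any 1 array was left out.

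Of the G1 kinases, Cdk4 was close to control, and Cdk2 and Cdk6 were dim. Processed signals were 68.05 to 118.3 for Cdk2 and 74.31 to 114.1 for Cdk6, against 3105 to 4035 for Cdk4. Fitted on processed signals, the means over both days were -0.33 for Cdk2 and -0.12 for Cdk6, and neither passed. Cdk4 was at -0.00 and -0.04 on day 5 and at -0.12 and 0.02 on day 8, with a mean of -0.04 ± 0.05 SE. Cdk6 had a mean of -0.13 ± 0.05 SE and Cdk2, the partner of cyclins E and A, a mean of -0.20 ± 0.07 SE. None of these 3 passed the test over both days, with limma adjusted p of 0.654, 0.111 and 0.112. Cdkn2c, an inhibitor of Cdk4 and Cdk6, was the other clear G1 change, at -0.66 and -0.74 on day 5 and at -0.27 and -0.85 on day 8. It fell to 64.7% of control (limma adjusted p = 0.0139), though its day 8 arrays lay far apart and day 8 alone did not pass. Without day 5 replicate 2 its adjusted p over both days was 0.0595 by limma.

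The activating E2F factors, which switch on S phase genes, did not pass over both days in the fit without a term for dye orientation. With that term E2f2 passed as higher (limma adjusted p = 0.0417), and E2f1 did not pass (0.297). E2f1 was at -0.00 and -0.12 on day 5 and at -0.10 and -0.04 on day 8. E2f2 was at 0.51 and 0.02 on day 5 and at 0.29 and 0.52 on day 8. All 4 E2f2 arrays were above 0, and all 4 of E2f1 just below it (limma adjusted p = 0.376 for E2f1 and 0.0625 for E2f2). Without day 5 replicate 2, E2f2 passed as higher (log2 0.46, limma adjusted p = 0.0384).

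In S phase the deepest change was that of Rrm2. Rrm2, the cell-cycle-regulated small subunit of ribonucleotide reductase, was at -1.39 and -1.60 on day 5 and at -1.41 and -1.67 on day 8. Its processed signal was 807.1 to 1071 in control and 267.8 to 317.8 in treated pools. The pools did not overlap, and Rrm2 fell to 34.9% of control (log2 -1.52 ± 0.07 SE, limma adjusted p = 0.00107). Its large-subunit partner Rrm1 was at -0.27 and -0.65 on day 5 and at -0.41 and -0.38 on day 8. Rrm1 fell less, to 74.4% of control (limma adjusted p = 0.0164), and passed on neither day alone. It also lost the call over both days without day 5 replicate 2 (limma adjusted p = 0.0503), day 8 replicate 1 (0.0577) or day 8 replicate 2 (0.062).

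Ccna2, the cyclin of S phase and G2, was at -1.32 and -1.47 on day 5 and at -1.26 and -1.005 on day 8. Its processed signal, after the scanner software's own correction, was 531.4 to 661.7 in control and 165.6 to 225.2 in treated pools. Ccna2 was well below 0 on every array, and it fell to 41.6% of control (log2 -1.26 ± 0.07 SE, limma adjusted p = 0.00125). E2f8, a repressor E2F that limits S phase transcription, was at -0.27 and -1.09 on day 5 and at -0.48 and -1.13 on day 8. E2f8 was lower on all arrays but by far more on those with the treated pool in Alexa 555, with means of -0.38 and -1.11 for the 2 orientations. It passed only over both days (log2 -0.74 ± 0.17 SE, limma adjusted p = 0.0342), and no longer without day 5 replicate 2 (0.0883) or without day 8 replicate 2 (0.11).

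The thymidylate genes did not pass in the fit without a term for dye orientation. With that term Tyms passed as lower (limma adjusted p = 0.0442). Tyms, which makes thymidylate, was at -0.08 and -0.25 on day 5 and at -0.19 and -0.15 on day 8 (limma adjusted p = 0.0755). Tk1, the salvage thymidine kinase, was at -0.02 and -0.19 on day 5 and at 0.26 and 0.19 on day 8. Its day 5 arrays were below 0 and its day 8 arrays above 0, with a mean near 0 over both days (0.06 ± 0.05 SE, limma adjusted p = 0.462). Its signal, 10740 to 12280 in control and 10750 to 14460 in treated pools, overlapped.

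Ccnb1, Cdk1, Ccnb2 and Foxm1, named for their roles after their values were seen, all fell. Ccnb1, the main mitotic cyclin, was at -1.02 and -1.26 on day 5 and at -0.93 and -1.04 on day 8, and fell to 47.8% of control (limma adjusted p = 0.00154). Cdk1, its kinase, was at -1.14 and -1.15 on day 5 and at -0.96 and -0.76 on day 8, and fell to 49.9% of control (limma adjusted p = 0.00139). For both genes all arrays were well below 0. Ccnb2 had a mean of -0.78 ± 0.05 SE over both days (limma adjusted p = 0.00158). Foxm1, the transcription factor that induces many G2 genes, was at -0.81 and -0.57 on day 5 and at -0.62 and -0.66 on day 8 (limma adjusted p = 0.00322).

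The 10 mitotic genes with the largest changes over both days are given next. They were chosen by size of change, so gaps between their control and treated signals follow in part from that choice. Prc1, which bundles microtubules of the central spindle, had processed signals of 823 in the control pool and 255 in the treated pool on day 5 replicate 1, and of 791.5 and 183.5 on replicate 2. On day 8 they were 697.7 and 202 on replicate 1, and 792.6 and 267.8 on replicate 2. No treated pool came near any control pool, and the ratios were -1.48, -1.72, -1.48 and -1.35. Prc1 fell to 35.2% of control over both days (log2 -1.51 ± 0.06 SE, limma adjusted p = 0.000917).

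Cdc20, the activator of the anaphase-promoting complex, had signals of 951.8 in control and 314.1 in treated on day 5 replicate 1, and of 871.7 and 253.6 on replicate 2. On day 8 its signals were 933.5 and 347.2, then 910.7 and 402.3. The treated pools again lay under every control pool. Cdc20 fell to 40.1% of control (log2 -1.32 ± 0.06 SE, limma adjusted p = 0.00112). Ube2c, the ubiquitin-conjugating enzyme that works with the same complex, was at -1.22 and -1.34 on day 5 and at -1.02 and -0.89 on day 8, and fell to 46.1% of control.

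A further 3 of these 10 act at the kinetochore or on chromosomes. Bub1, a spindle checkpoint kinase, was at -1.30 and -1.56 on day 5 and at -1.21 and -1.42 on day 8, and fell to 38.6% of control (limma adjusted p = 0.00124). Cenpe, a kinesin that links kinetochores to microtubules, was at -1.33 and -1.53 on day 5 and at -1.29 and -1.30 on day 8, and fell to 38.8% of control (limma adjusted p = 0.000905). Neither gene had an array above -1.21. Aurkb, the kinase of the chromosomal passenger complex, was at -1.02 and -1.59 on day 5 and at -1.07 and -1.51 on day 8. It fell to 40.7% of control, with lower ratios on both arrays that had the treated pool in Alexa 555.

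The other 4 of the 10 were Nusap1, Tpx2, Top2a and Stmn1. Nusap1, a microtubule-binding protein, was at -1.24 and -1.40 on day 5 and at -1.41 and -1.20 on day 8. Tpx2, which activates Aurora A on the spindle, was at -1.22 and -1.42 on day 5 and at -1.13 and -1.41 on day 8. Nusap1 fell to 40.3% and Tpx2 to 40.8% of control, with every array at -1.13 or lower for both. Top2a, the topoisomerase that untangles replicated DNA, was at -1.16 and -1.37 on day 5 and at -0.92 and -1.43 on day 8, and fell to 42.9% of control (limma adjusted p = 0.00275). Stmn1, a microtubule-destabilizing protein, was at -1.47 and -1.54 on day 5 and at -1.23 and -1.05 on day 8. Its processed signal was 3944 to 4705 in control and 1378 to 2231 in treated pools, and it fell to 39.9% of control (limma adjusted p = 0.000917).

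**Figure D3:**
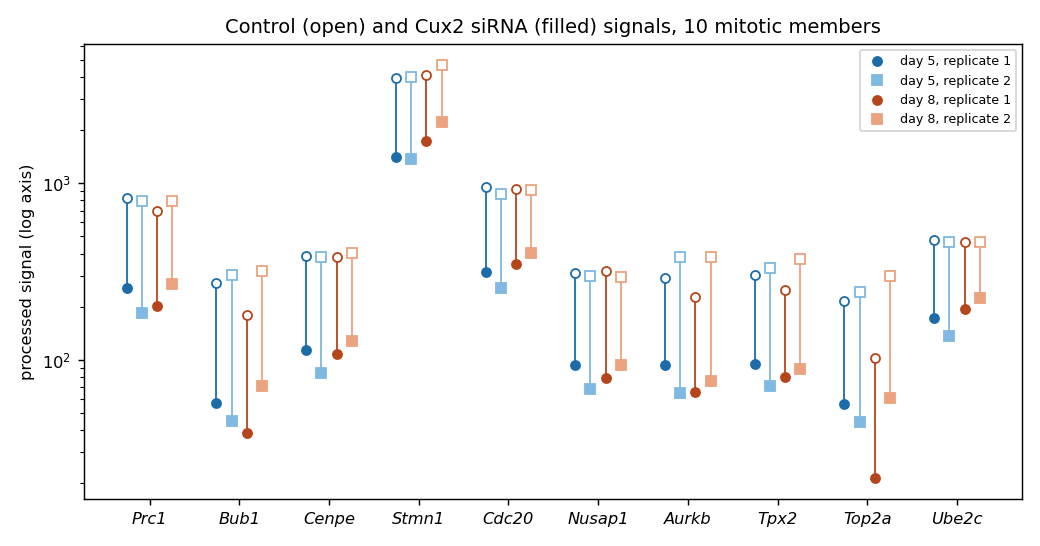
Processed signal of the control pool and the treated pool on each array for the mitotic genes with the largest changes, on a log axis. For each gene plotted the treated pools sit under the control pools, which follows in part from choosing genes by size of change. Prc1, for example, is at 697.7 to 823 in control and 183.5 to 267.8 in treated pools. The share over all genes is not given.

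The remaining mitotic genes that fell moved less, and are also named after their values were seen. Aurka, Mad2l1 and Cdca8 had means of -0.84, and Plk1, Birc5 and Racgap1 lay at -0.71, -0.70 and -0.70. Kif11, Kif20a, Bub1b and Cdca3 had means of -0.64, -0.52, -0.43 and -0.41. All 10 passed limma's test over both days, with adjusted p from 0.00149 to 0.00597. Summed over the tested mitotic genes, the processed signal was 14090 to 16080 in control pools and 6637 to 8403 in treated pools, with no overlap. The G1 sums overlapped between control and treated pools. So did the S phase sums, most of which is signal of Tk1 and Tyms, while the Rrm2 and Ccna2 signals did not overlap. Overlap was not counted over all genes, so these statements are only a description.

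The other 3 mitotic genes tested did not pass in the fit without a term for dye orientation. Cenpa, the centromeric histone, was at -0.44 and -0.03 on day 5 and at -0.29 and 0.08 on day 8. Its arrays split by dye orientation, with means of -0.36 and 0.02, and it did not pass (limma adjusted p = 0.267). With a term for dye orientation it passed as lower (limma adjusted p = 0.0274). The promoter window of Cenpa holds both CCAAT and the CHR letters. Cdc25b, a phosphatase that activates cyclin-dependent kinases, was at -0.02 and -0.14 on day 5 and at 0.06 and -0.17 on day 8 (limma adjusted p = 0.457). Cdc25c, its relative in mitotic entry, was well above background in only 2 of 8 readings, and no fold is given.

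Mitotic ratios were mostly a little lower on day 5 than on day 8, but no gene passed the test of the difference. The day 8 coefficient was above that of day 5 in 26 of 27 mitotic genes, with a median difference of 0.12, against 50.2% of all genes. These genes were read on the same arrays and are not replicates. A deviation shared by an array can move them together, so the count is only a description. By limma, 0 of 44 genes passed for day 8 minus day 5, as did 0 of all 25101 genes (0% called). Without adjustment, 4 of the 44 had p under 0.05 by limma, as did 2.47% of all genes: Stmn1 (difference 0.36), Cdc20 (0.35), Tk1 (0.33) and Ube2c (0.32). Cux2 itself was less reduced on day 8, by a difference of 0.67 that did not pass either. A link between Cux2 and these day differences was not tested. The Stmn1 difference depended on the probe. Another Stmn1 probe was at -0.56 and -0.97 on day 5 and at -0.90 and -0.75 on day 8. That probe was well above background in 8 of 8 readings, and its day 8 values lay between its day 5 values.

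Where a gene had several probes that passed the background filter, they gave the same sign but not always the same size. Of 18 genes with several probes, 15 had more than 1 that passed the background filter, and all 15 had the same sign. The other Cdk1 probe, well above background in 0 of 8 readings, had a mean of 0.07. The spread exceeded 0.5 in 4 genes. The other probe of Top2a, well above background in 3 of 8 readings, was at -0.26. The other probes were at -0.70 for Cenpe, at -0.79 for Stmn1 and at -0.17 for Ccne1.

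Other cell cycle genes outside the 46 were counted from lists by role. Over both days 16.3% of all genes fell and 14.8% rose, the shares to set beside each count. These lists too were chosen with earlier results of these data known. Of 40 further mitotic genes, 31 fell and 2 rose over both days, with a median of -0.41. Melk, Cep55 and Cenph had the largest of these changes, at -2.03, -1.55 and -1.15. Of 21 DNA replication genes, 19 fell and 0 rose, with a median of -0.76. The replication factor Rfc5 was at -1.59, the licensing factor Cdt1 at -1.57 and the helicase subunit Mcm6 at -1.54. Of 22 genes that restrain the cycle, 8 fell and 2 rose, with a median of -0.18. In that list the pocket protein Rbl1 fell by 1.05, the checkpoint kinase Chek1 fell by 0.68, and Wee1, which inhibits Cdk1, rose by 0.69. Of 11 DREAM and MuvB genes, 5 fell and 0 rose (median -0.21), a list that shares Rbl1 with the restraining genes and Foxm1 with the mitotic class. Of 11 further G1 genes, 0 fell and 1 rose, Ccnc by 0.27. Of 16 hepatocyte growth genes, 4 fell and 4 rose, with Egf at 0.58, Egfr at 0.53 and Axin2 at -0.45.

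**Figure D4:**
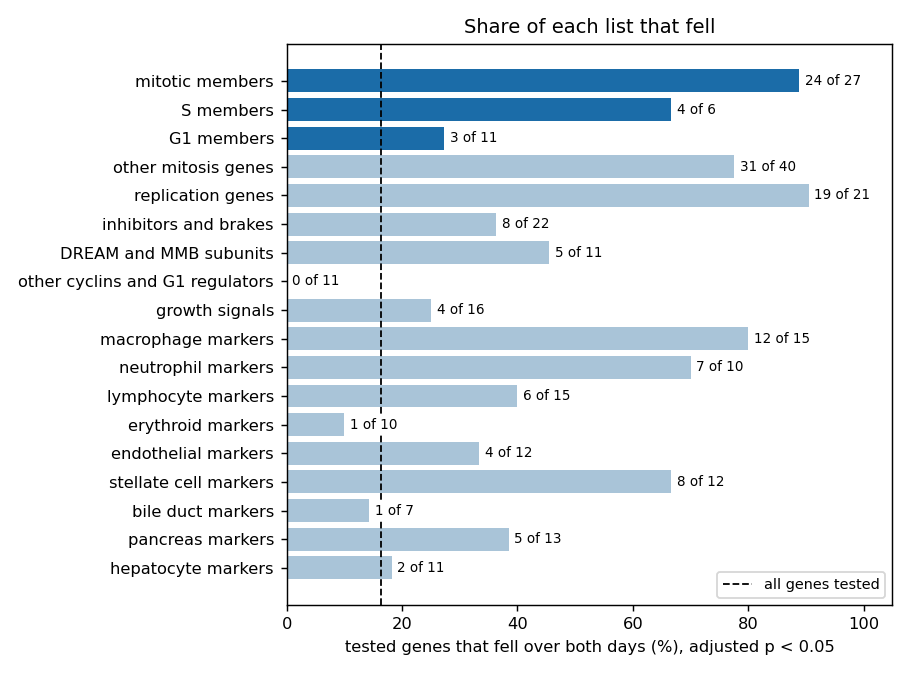
Share of tested genes that fell over both days in each list, beside the share over all genes (16.3%). The replication list is highest at 90.5%, the mitotic class is at 88.9% and the further G1 list is at 0%.

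Markers of other cell types were counted in the same way, beside the 16.3% of all genes that fell and the 14.8% that rose. Of 15 macrophage markers 12 fell (median -0.66), with summed signals of 124900 to 152300 in control and 75100 to 111900 in treated pools. Of 10 neutrophil markers 7 fell (median -0.59), with sums of 16790 to 22880 in control and 2200 to 4812 in treated pools. Of 15 lymphocyte markers 6 fell and 1 rose (sums 7987 to 10010 and 5336 to 6089), and of 12 stellate cell markers 8 fell and 3 rose (median -0.59). Of 10 erythroid markers 1 fell and 2 rose, and their sums overlapped, at 231600 to 316300 and 139500 to 324100. Of 12 endothelial markers 4 fell and 2 rose, and of 7 bile duct markers 1 fell and 1 rose. Of 13 pancreatic genes 5 fell, with array medians of -2.77, -4.13, 0.50 and -3.85. The part of these cell types in the lower cell cycle RNAs was not tested.

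The direction of the mitotic class held under other handling of the background and scale, but the size and the number of calls did not. The mitotic median over both days was -1.32 with the scanner's processed signals and -0.42 with no background subtraction, against -0.84. With no background subtraction the S phase median was -0.44 and so next to the mitotic one, and the order of those classes depends on that step. With arrays centred on their median in place of loess, 10 of the 44 genes passed over both days and 0 on either day alone, where 269 of all genes passed over both days, 32.3% of them higher, against 47.6% of the calls after loess. On 1 day alone the calls rest on 2 arrays: 7 genes passed on day 5 without its replicate 2, and 1 passed on day 8 without its replicate 2.

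**Figure D5:**
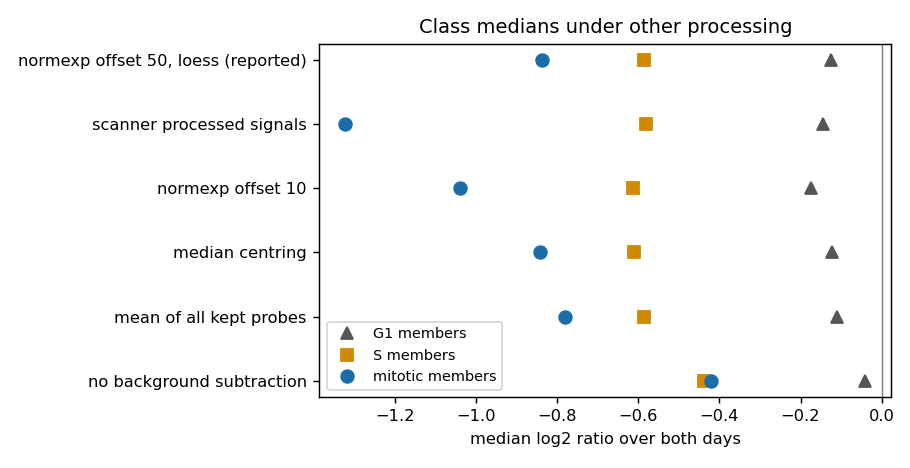
Median log2 ratio over both days of the G1, S phase and mitotic genes as reported and under other ways of processing the arrays. The mitotic median is below 0 in each and ranges from -1.32 with processed signals to -0.42 with no background subtraction.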

How the data were processed

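The 4 arrays came as scanner files and a value table. The deposited intensity values are, per the file headers, spot signals that Agilent's Feature Extraction software (version 10.7.1.1) read from each scan. The authors' deposited log10 ratios equalled the scanner log10 ratios for all 45018 features (tolerance 1e-04) after the 2 replicate 2 arrays, whose treated pool was green, were flipped, and each column median was 0. The scanner's p-value per spot, in the deposited files per the file headers, was not used. RNA was extracted with Trizol and amplified before labelling, per the labels' protocols. The array design names build mm8, per the file headers, and promoters came from RefSeq on GRCm38.p6.

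Median signals were corrected with normexp (offset 50) and loess-normalized within arrays in limma 3.58.1 (R 4.3.3), leaving control and outlier spots out of the loess fit. Spots were averaged per probe, outliers left out. A probe was kept if well above background in at least 2 of 8 readings (31776 of 41174), and the brightest probe stood for a gene. RefSeq accessions gave a symbol to 56.8% of probes. A single limma fit over 4 arrays (2 residual degrees of freedom, prior 2.77) tested day 5, day 8, their mean and their difference on the log2 scale derived from the deposited intensities, with Benjamini-Hochberg adjustment over 25101 genes. The fit was also run on simulated arrays with independent noise, which cannot show its error rate where arrays deviate together. All arrays lay on 1 slide, and their number limits the precision. Processed signals are background-subtracted and dye-normalized by the scanner software.

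Values were named for Cux2, every G1 and S phase gene, the 10 mitotic genes with the largest mean, mitotic genes that did not pass or differed in sign between arrays, and up to 3 passing genes per other list. The genes and lists were chosen with earlier results of these data known. Alternatives were the scanner's processed signals, the authors' ratios, median centring, no background subtraction, another offset (10, chosen after seeing the data), other probe rules, a replicate block and leaving out each array.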

Additional observations from a re-analysis of the deposited data

Results flagged for a closer look

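Tk1 went opposite ways on the 2 days: both day 5 arrays were below 0 (-0.02 and -0.19) and both day 8 arrays above 0 (0.26 and 0.19). The difference of day 8 minus day 5 was 0.33 ± 0.11 SE, with an unadjusted p of 0.0314 and an adjusted p of 1 by limma, so it did not pass over all genes.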

How the results depend on the processing

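The median centring of arrays in place of loess left 0 of the 44 genes passing on day 5, 0 on day 8 and 10 over both days (limma), and 5, 3 and 269 of all genes; the cause was not tested. Leaving out 1 array gave 7 to 28 genes on day 5, 1 to 24 on day 8 and 28 to 30 over both days. Over all genes this gave 239 to 3589 on day 5 and 137 to 2472 on day 8. The mitotic median was -1.32 with processed signals and with the authors' ratios, -1.04 with offset 10 and -0.42 with no background subtraction, which also moved the G1 median to -0.040. Cdk4 reversed to 0.023 with processed signals and the authors' ratios. Leaving out 1 array gave Ccnd1 means from -0.049 without day 8 replicate 2 to 0.53 without day 8 replicate 1. Processed signals gave 24, 22 and 28 calls on day 5, day 8 and over both days, beside 2016, 1477 and 6659 of all genes. Ccnd3 also lost its call with processed signals (limma adjusted p = 0.155), and so did E2f8 (0.0898) and Rrm1 (0.0606). The size of a change depends on the background step: Ccnb1 was at -2.14 with processed signals and -0.36 with no background subtraction. Same-numbered arrays deviated together (r = 0.50 across 25101 genes, which are not independent), but the number is also the dye orientation. With the replicate block 36 genes passed over both days, 34 lower and 2 higher, and 11245 of all genes. The 5 genes it added were Ccnd1 (limma adjusted p = 0.0255) and E2f2 (0.0417), both higher, and Ccnd2 (0.00926), Tyms (0.0442) and Cenpa (0.0274), all lower. The day difference gave 0 calls under every alternative run.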
